A study of Mus musculus with 354 samples.

Results

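Derl3 and 9 chaperone genes of the endoplasmic reticulum (ER), namely Pdia4, Pdia6, Hspa5, Hsp90b1, Sdf2l1, Dnajb11, Creld2, Manf and Hyou1, were followed across mouse liver arrays. The 10 genes were selected on measured values of the same arrays: the difference between tolvaptan and Control, the Control level of each strain and the co-variation of Derl3 with the chaperones. Those 3 kinds of value are therefore given as descriptions. No p-value is attached to any of the 10, and where calls from fits over all genes are counted, the share of all genes stands beside them and nothing is read from the count. Probe sets annotated to exactly 1 of the 10 symbols were taken, which gave 15 probe sets, and each gene was read from its brightest one. All 10 genes passed the filter on dim genes, out of 14125 genes that did, and the lowest single value of any of them, 4.09, lay above the highest array median of 3.02.

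The arrays came from male mice of 45 inbred Collaborative Cross strains, a panel in which each strain carries its own mixture of several founder genomes. Tolvaptan, which blocks the V2 receptor of vasopressin, was given to some animals of each strain (175 arrays) and vehicle, labelled Control, to others (179 arrays). Liver was taken 24 h after treatment from mice of 8 to 10 weeks that had been acclimated for about 7 days and fasted for about 18 h, and RNA came from the median lobe. With 1 animal per array, 85 of the 90 groups had 4 animals, while 4 groups had 3 and 1 group had 2. The dose label carries no unit and is not used. All values are the deposited log2 values, on which a difference of 1 is a doubling.

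Proteins that enter the ER fold there with the help of chaperones, and proteins that fail to fold are sent back to the cytosol and degraded, a route called ER-associated degradation (ERAD). When unfolded proteins build up, the sensors ATF6, IRE1 with its target XBP1, and PERK start the unfolded protein response, which raises the transcription of chaperone and ERAD genes. Hepatocytes secrete most plasma proteins and depend on this machinery. Hspa5 encodes BiP, the ER member of the Hsp70 family and the central chaperone of the compartment. Hsp90b1 encodes Grp94, the ER Hsp90, and Hyou1 encodes a nucleotide exchange factor of BiP. Dnajb11 encodes a J-domain co-chaperone of BiP, and Sdf2l1 a protein bound to J-domain co-chaperones. Pdia4 and Pdia6 encode protein disulfide isomerases, which form and rearrange disulfide bonds. Manf and Creld2 encode secreted or ER-retained stress-induced proteins. Derl3 encodes a derlin, a membrane protein of ERAD.

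ATF6 and XBP1 act on the ER stress response element (ERSE), whose letters are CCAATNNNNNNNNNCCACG, with N for any base. It is shown because it is the classical shared sequence of these promoters. In RefSeq windows of GRCm38.p6 from 250 bases before to 50 after each gene's start, 8 of the 10 genes had a window, and both strands were searched. An exact ERSE lay in the windows of 5 of these 8 genes and in 0.137% of all 27025 genes with a window. The capitals below mark the fixed letters of the element, printed 5′ to 3′ on the strand that carries it.
Derl3, chr10:75893242-75893260, minus strand of a gene on the plus strand: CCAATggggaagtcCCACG
Pdia6, chr12:17266491-17266509, plus strand, as the gene: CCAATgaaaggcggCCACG
Hspa5, chr2:34772025-34772043, plus strand, as the gene: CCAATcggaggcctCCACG
Hsp90b1, chr10:86705533-86705551, plus strand of a gene on the minus strand: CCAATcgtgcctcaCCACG
Hsp90b1, chr10:86705638-86705656, minus strand, as the gene: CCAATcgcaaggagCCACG
Creld2, chr15:88819520-88819538, minus strand of a gene on the plus strand: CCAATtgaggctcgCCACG
Dnajb11 carried the related ERSE-II, with the letters ATTGGNCCACG, which 0.0444% of genes with a window hold, from base 8 to base 18 after its start.
Dnajb11, chr16:22857852-22857862, plus strand, as the gene: ATTGGcCCACG
The third element searched, UPRE with the letters TGACGTGG, was in the windows of 0 of the 8 genes and of 0.714% of all genes. No window of the 8 genes held matches to 2 different motifs. Pdia4 and Sdf2l1 held none of the 3 motifs in these windows.

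The whole upstream stretch is shown for Derl3 and, to set beside it, the 150 bases before the start of Hspa5 and Pdia6, since Pdia6 varied with Derl3 from animal to animal and Hspa5 did not. Capitals mark the ERSE letters, which read as CGTGG and ATTGG where the element lies on the other strand.
Derl3, chr10:75893148-75893397, plus strand: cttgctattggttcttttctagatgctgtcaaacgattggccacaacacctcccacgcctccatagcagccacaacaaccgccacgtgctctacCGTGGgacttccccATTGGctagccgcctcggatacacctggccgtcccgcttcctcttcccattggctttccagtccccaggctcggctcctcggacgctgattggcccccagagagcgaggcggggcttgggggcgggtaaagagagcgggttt
Hspa5, chr2:34771940-34772089, plus strand: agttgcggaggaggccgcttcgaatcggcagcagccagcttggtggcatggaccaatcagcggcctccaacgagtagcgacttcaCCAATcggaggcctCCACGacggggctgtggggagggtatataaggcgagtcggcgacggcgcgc
Pdia6, chr12:17266439-17266588, plus strand: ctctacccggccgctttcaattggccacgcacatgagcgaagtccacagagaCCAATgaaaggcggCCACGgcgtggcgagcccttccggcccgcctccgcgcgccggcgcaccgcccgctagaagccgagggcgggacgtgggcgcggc
Relative to the start, the element ran from base -156 to -138 in Derl3, from -98 to -80 in Pdia6 and from -65 to -47 in Hspa5. A match is a description of letters in the reference genome, not of a bound site, and the strains' own sequences were not analysed here.

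Before the results, some facts of the arrays bear on all of them. Over the 500 probe sets that best separate the strains, 34 arrays from 19 strains had r of at most 0.325 to the remaining arrays of the strain on their label, and the other 320 had at least 0.649. These 34 are called mismatched arrays below, and of them 27 were Control and 7 tolvaptan, and 22 lay in scan 2 of the 6 scan dates. Most of the 34 had r of 0.76 to 0.97 to the arrays of another strain. In a few, the highest r to any other strain was only 0.32 to 0.34. The strain on the label of a mismatched array is therefore uncertain. In AU8021, AU8024 and AU8033 the arrays not counted as mismatched also had a higher r to another strain than to their own. Labels were kept, and the main differences and correlations are given with and without the mismatched arrays. The Control strain means include them. Scan 1 held 1 animal of each strain and treatment, and the later arrays of a strain lay in other scans. Derl3 ranged from 4.09 to 10.86 in the 27 mismatched Control arrays and from 4.32 to 10.94 in the other 152. Hepatocyte genes were high in both treatments, with a summed level of 16.19 to 16.57 in Control and 16.20 to 16.59 in tolvaptan arrays over 14 genes. In bulk liver, fewer cells of a type and less RNA per cell cannot be told apart.

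Averaged over the strains, Derl3 was higher under tolvaptan, Pdia4, Pdia6 and Sdf2l1 were higher by a smaller amount, and the central chaperone Hspa5 lay close to its Control level. Derl3 values in Control arrays ran from 4.09 through a median of 6.18 to 10.94, and in tolvaptan arrays from 4.27 through 7.33 to 11.79. The 2 treatments overlapped over nearly the whole range. The mean was 6.52 ± 1.44 (SD, n = 179) in Control and 7.53 ± 1.69 (SD, n = 175) in tolvaptan arrays. The averaged difference, with each strain weighted equally and scan as a covariate, was 0.99 ± 0.13 (SE), or 1.99-fold. It was positive in 35 of 45 strains. With mismatched arrays left out it was 0.88 ± 0.13, and in the 26 strains that had none it was 1.32 ± 0.14.

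The upper part of the Derl3 range held mostly tolvaptan animals. A value above 9 was found in 36 of 175 tolvaptan arrays, from 23 strains, and in 14 of 179 Control arrays, from 9 strains. A value below 6 was found in 33 tolvaptan and 77 Control arrays.

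The disulfide isomerases differed by less. Pdia4 had a mean of 8.77 ± 0.48 (SD, n = 179) in Control and 8.96 ± 0.55 (SD, n = 175) in tolvaptan arrays, and its averaged difference was 0.20 ± 0.05 (SE), positive in 35 strains. Pdia6 went from 9.33 ± 0.49 (SD, n = 179) to 9.53 ± 0.60 (SD, n = 175), a difference of 0.20 ± 0.04, positive in 34 strains. Both shifts were smaller than the SD between arrays of 1 treatment. Without the mismatched arrays the differences were 0.18 ± 0.05 for Pdia4 and 0.18 ± 0.04 for Pdia6. In the 26 strains free of such arrays they were 0.29 ± 0.05 and 0.28 ± 0.05. The single arrays of Pdia4 ran from 7.59 to 11.11 in Control and from 7.56 to 11.01 in tolvaptan, and those of Pdia6 from 8.06 to 10.93 and from 7.67 to 11.08, so the treatments overlapped throughout.

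Sdf2l1, the partner of J-domain co-chaperones, had the widest single-array range of the 9 chaperones, from 4.09 to 11.50 in Control and from 4.18 to 11.57 in tolvaptan arrays. Its averaged difference was 0.26 ± 0.09, positive in 31 strains, and 0.22 ± 0.09 without the mismatched arrays. It did not pass the threshold over all arrays and passed it in the 26 strains free of mismatched arrays, where the difference was 0.38 ± 0.11.

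Over all arrays, the BiP group and the secreted proteins stayed near Control. Hspa5 had a mean of 9.93 ± 0.61 (SD, n = 179) in Control and 9.95 ± 0.59 (SD, n = 175) in tolvaptan arrays, a difference of 0.02 ± 0.05 that was positive in 22 of 45 strains. Hsp90b1 differed by 0.08 ± 0.06, with 28 positive strains. The BiP co-chaperone Dnajb11 differed by 0.06 ± 0.04, with 27 positive strains. None of these 3 values exceeded 2 standard errors. Without the mismatched arrays Hspa5, Hsp90b1 and Dnajb11 differed by 0.04 ± 0.05, 0.11 ± 0.06 and 0.04 ± 0.04. In the 26 strains free of such arrays the differences were 0.06 ± 0.06, 0.15 ± 0.07 and 0.08 ± 0.04. They were positive there in 16, 20 and 16 strains, and that of Hsp90b1 exceeded 2 standard errors. Over all arrays the differences were negative in sign for Manf, at -0.01 ± 0.06, Hyou1, at -0.03 ± 0.06, and Creld2, at -0.05 ± 0.07, each smaller than its standard error. Without the mismatched arrays they were -0.01 ± 0.06, -0.05 ± 0.06 and -0.03 ± 0.07. In the 26 strains they were -0.02 ± 0.06, -0.03 ± 0.06 and -0.08 ± 0.07.

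At an adjusted p under 0.05 in limma, 3 of the 10 genes were called for the averaged difference, Derl3, Pdia4 and Pdia6, against 0.496% of all 14125 genes. All 3 were higher under tolvaptan, a direction in which 0.326% of all genes were called, and 0 of 10 were called lower, against 0.17% of all genes. At an unadjusted p under 0.05 in limma, 4 of the 10 were higher and 0 lower, against 9.56% of all genes in either direction. Without the mismatched arrays, 2 of 10 were called, Derl3 and Pdia6, against 0.312% of genes. In the 26 strains free of them, 4 of 10 were called, Sdf2l1 in addition, against 2.12%. The genes were chosen with this contrast known, so these counts describe the choice. With the strains as the unit, 1 difference per strain, 1 of the 10 was called, Derl3, against 0.127% of genes. The SEs given above come from the spread between animals of a group. With the strains as the unit the SE was 0.19 for Derl3, 0.06 for Pdia4 and 0.06 for Pdia6, against 0.13, 0.05 and 0.04.

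**Figure D1:**
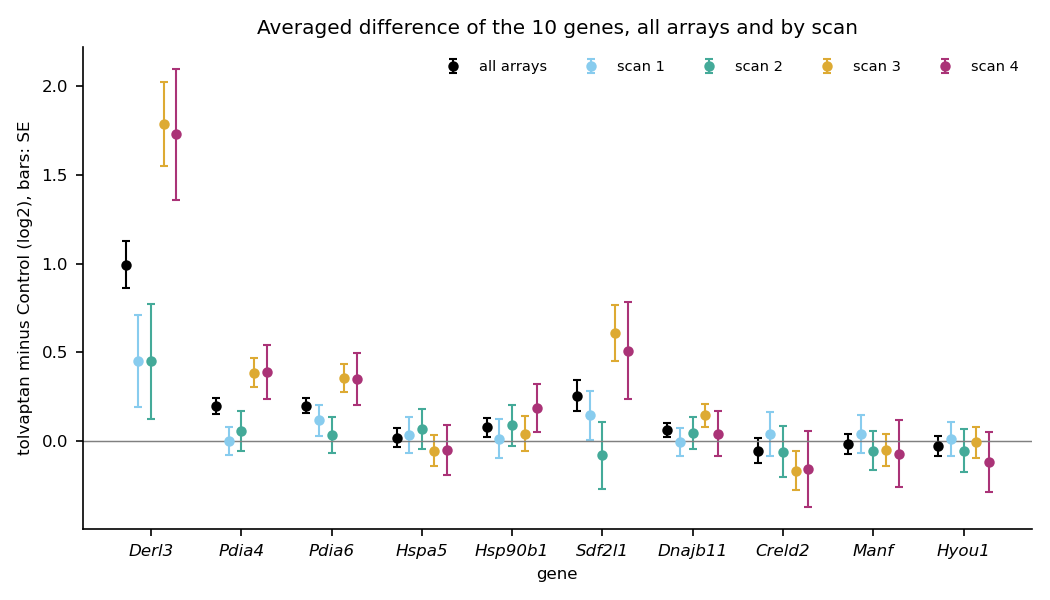
Averaged tolvaptan minus Control difference (log2, points, with SE bars) of the 10 genes over all arrays and within each of scans 1 to 4, over the strains that have both treatments in that scan. Derl3 lies at 0.45 in scans 1 and 2 and at 1.78 and 1.73 in scans 3 and 4, while Hspa5 lies between -0.05 and 0.07 in all 4.

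The size of the difference moved with the scan. For Derl3 it was 0.45 ± 0.26 (SE) in scan 1, over all 45 strains, and 0.45 ± 0.32 in scan 2, over 16 strains. It was 1.78 ± 0.24 in scan 3, over 16 strains, and 1.73 ± 0.37 in scan 4, over 8 strains. The 2 isomerases and Sdf2l1 were likewise furthest from 0 in scans 3 and 4. Pdia4 differed by -0.0012 and 0.06 in scans 1 and 2 and by 0.39 in both scans 3 and 4. Sdf2l1 differed by 0.15, -0.08, 0.61 and 0.51 in scans 1 to 4. Within single scans, 3 of the 10, Derl3, Pdia4 and Pdia6, were called in scan 3, against 0.227% of all genes. In scans 1, 2 and 4, 0 of the 10 and 0 of all 14125 genes were called by limma. There 0, 0 and 3 of the 10 had an unadjusted limma p under 0.05, against 2.53%, 6.12% and 5.93% of all genes.

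Scans 2 and 3 hold different strains, and the strains fall into sets by animal number. In the 16 strains whose lowest animal number is below 181, whose later arrays lie nearly all in scan 2, the mean Derl3 difference was 0.16 and 7 strains were positive. In the other 29 strains the mean difference was 1.45 and 28 were positive. The tolvaptan arrays of both sets had similar means, 7.61 and 7.48, whereas the Control arrays had means of 7.44 and 6.01. Of the 34 mismatched arrays, 26 belonged to the first set, and without them its mean difference was -0.17, against 1.46 in the second. Scan 1 holds both sets, and there the mean differences were -0.50 and 0.98. Sdf2l1 showed the same order, with means of -0.10 and 0.45 over all scans and of -0.10 and 0.28 in scan 1. Outside scan 1, strain set and scan cannot be told apart, and the difference between the sets was not tested.

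**Figure D2:**
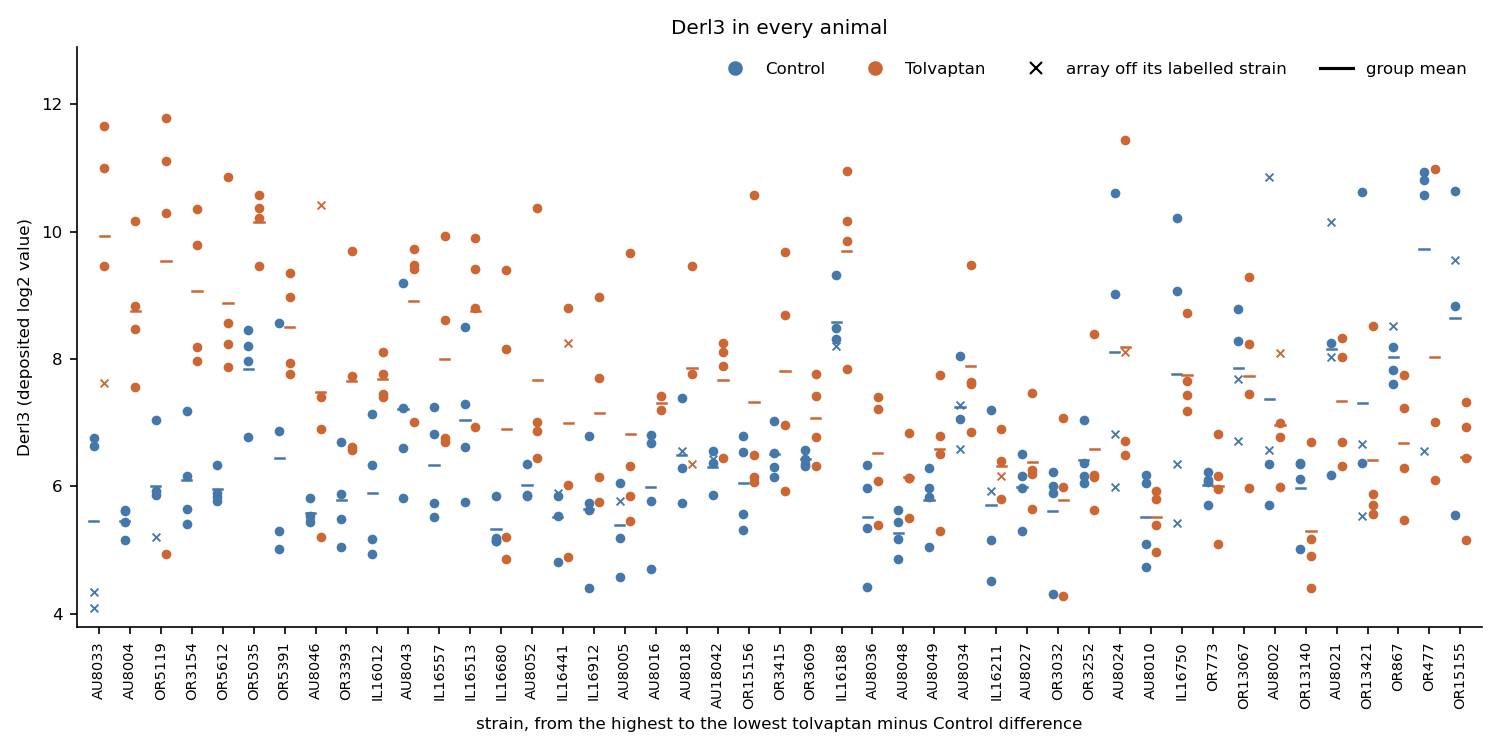
Derl3 (deposited log2 value) in every animal, by strain, ordered by the tolvaptan minus Control difference; points are animals, crosses are mismatched arrays (in the legend, off their labelled strain) and short lines are group means. AU8004 and OR3154 at the left have all tolvaptan animals above all Control animals, and OR477 and OR15155 at the right have high Control animals.

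By strain the Derl3 difference ran from -2.17 in OR15155 to 4.48 in AU8033, with an SE of about 0.88 in a strain with 4 animals per treatment, and a median of 1.19. The first 2 strains, AU8033 and AU8004, lay 1.18 apart, less than the SE of 1.24 of a difference between 2 strains, and all other neighbours lay at most 0.61 apart. In 8 strains every tolvaptan animal lay above every Control animal, and in 0 of 45 strains did every one lie below. Over all pairs of gene and strain, 1.55% had groups that did not overlap with tolvaptan higher and 1.5% with tolvaptan lower. The rule used the same contrast, so the count of 8 is read only as a description.

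AU8033 had the highest difference. Its Control animals had Derl3 values of 4.09, 4.34, 6.64 and 6.76 and its tolvaptan animals values of 11.67, 7.62, 11.00 and 9.46. The groups did not overlap, but the 2 lowest Control values and the value of 7.62 came from mismatched arrays, and without these 3 the difference was 3.98. Each of the remaining arrays also had a higher r to another strain, 0.81 to 0.91, than to AU8033, 0.70 to 0.85. The 9 chaperones were not uniform there: the difference was 1.18 for Pdia4 and 1.34 for Pdia6, and 0.06 for both Manf and Creld2.

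AU8004 had no mismatched array. Its Control animals had Derl3 values of 5.44, 5.63, 5.16 and 5.62 and its tolvaptan animals values of 10.17, 7.57, 8.47 and 8.83. The Control values were tightly grouped and all tolvaptan values lay above them, a difference of 3.30 ± 0.88 (SE). Hspa5 in the same tolvaptan animals was 8.72, 9.90, 9.50 and 10.22, against 10.41, 10.12, 10.19 and 9.89 in Control. The animal with the highest Derl3 value of this strain had the lowest BiP transcript of the 8.

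OR5119 had Control values of 5.92, 7.04, 5.86 and 5.21 and tolvaptan values of 11.79, 10.30, 11.11 and 4.94. The value of 11.79 was the highest Derl3 value of all 354 arrays, and the value of 4.94, the strain's tolvaptan array in scan 1, was the lowest of its 8 animals. The difference was 3.29 ± 0.89, 4.70 without that animal, and 3.21 without the Control value of 5.21, from a mismatched array. The same strain had the highest difference of all 45 in 6 chaperones, Pdia6, Hspa5, Sdf2l1, Dnajb11, Creld2 and Manf, at 1.39, 0.75, 2.25, 0.83, 1.04 and 1.19.

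OR3154 and OR5612 also had groups that did not overlap, and neither had a mismatched array. OR3154 had Derl3 at 6.16, 7.19, 5.41 and 5.65 in Control and 7.97, 9.79, 10.35 and 8.19 in tolvaptan animals, a difference of 2.97. OR5612 had 6.34, 5.91, 5.77 and 5.83 against 8.23, 10.85, 8.57 and 7.88, a difference of 2.92. In both strains the lowest tolvaptan value lay above the highest Control value. Pdia6 and Dnajb11 also had groups that did not overlap in OR5612, with differences of 0.61 and 0.56.

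At the other end, 10 strains had a negative Derl3 difference, and the 5 lowest over all arrays are described here. The order at this end changed without the mismatched arrays. IL16750 then went from -0.01 to -1.85 and AU8024 from 0.08 to -1.62, while AU8002 went from -0.41 to 0.56. OR15155 had Control values of 9.56, 8.83, 5.55 and 10.64 and tolvaptan values of 7.33, 6.44, 5.16 and 6.94, a difference of -2.17 ± 0.88. The value of 9.56 came from a mismatched array, and without it the difference was -1.88. The groups overlapped through 1 low Control animal.

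OR477 had Control values of 6.55, 10.82, 10.58 and 10.94 and 3 tolvaptan values of 10.98, 7.01 and 6.10. Its difference was -1.71 ± 0.95, and -2.75 without the Control array of 6.55, which was mismatched. It was -3.24 without the tolvaptan animal at 10.98 and -0.65 without that at 6.10. Pdia4 did not overlap in OR477, with tolvaptan lower by a difference of -0.89. OR867 had 8.51, 8.19, 7.83 and 7.61 in Control and 7.74, 7.23, 5.47 and 6.28 in tolvaptan animals, a difference of -1.35, or -1.21 without the Control array of 8.51, which was mismatched. The 2 groups of OR867 overlapped by the single tolvaptan value of 7.74.

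The sign of the last 2 strains depended on few arrays. In OR13421 the difference of -0.88 became 0.25 without the Control animal at 10.63, the others of that group being at 5.54, 6.67 and 6.37, it became -1.60 without the tolvaptan animal at 8.51, and it became -2.12 without the 2 mismatched arrays, at 5.54 and 6.67. AU8021 stayed negative with any single animal left out, between -1.55 without the Control animal at 6.18 and -0.12 without that at 10.15. Its difference of -0.81 became 0.09 without the 2 mismatched Control arrays, at 8.03 and 10.15.

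**Figure D3:**
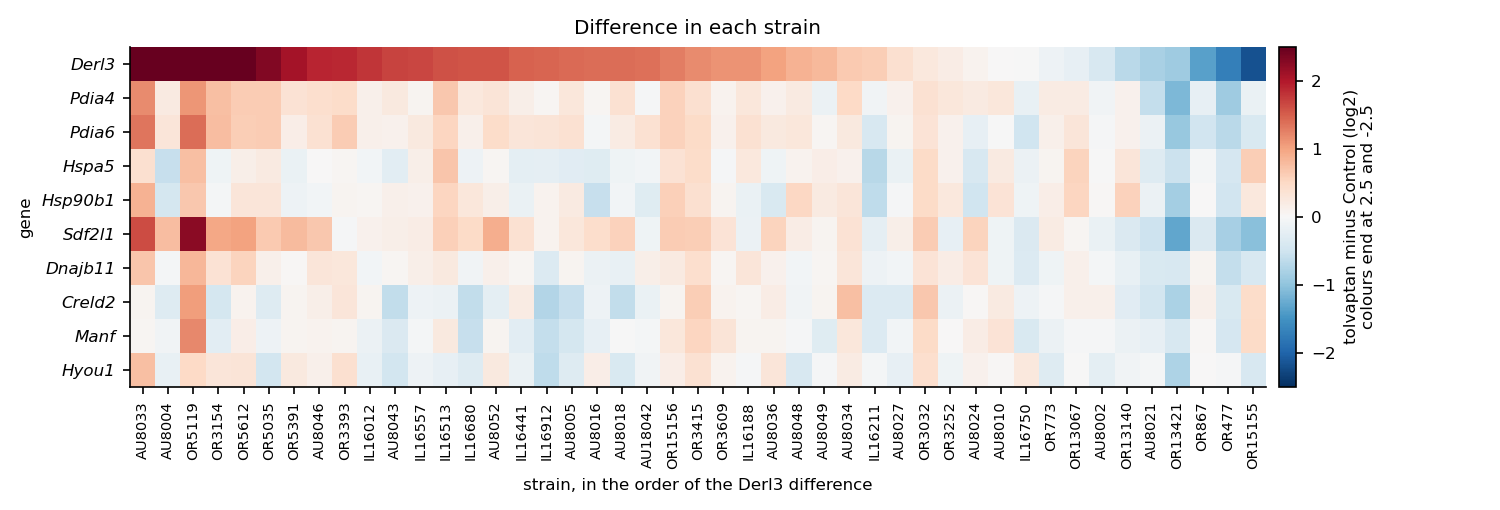
Tolvaptan minus Control difference (log2, colour) of the 10 genes in each of the 45 strains, ordered by Derl3; colours end at 2.5 and -2.5. Red in Derl3 is accompanied by paler red in Pdia4, Pdia6 and Sdf2l1 at the left, while Hspa5, Hsp90b1, Creld2 and Manf show both colours along the whole order.

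Across strains, the sign of the difference followed Derl3 for some chaperones more often than for others. Pdia4 had the same sign as Derl3 in 39 of 45 strains, Pdia6 in 38 and Sdf2l1 in 37. Dnajb11 had the same sign in 33, and Hspa5 and Creld2 in 24. Pearson's r of the 45 differences with those of Derl3 was 0.83 for Sdf2l1, 0.81 for Pdia6 and 0.75 for Pdia4, and 0.09 for Hspa5 and 0.036 for Creld2. The corresponding Spearman rho was 0.77, 0.74, 0.67, 0.048 and -0.035. In the 26 strains free of mismatched arrays, r was 0.68 for Sdf2l1, 0.56 for Pdia6, 0.46 for Pdia4 and -0.39 for Hspa5. The genes of a strain share the same arrays, so these values describe co-variation and carry no test.

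The chaperones had fewer strains without overlap than the 8 of Derl3, and the shares over all genes given above, 1.55% and 1.5%, amount to under 1 strain of 45 in each direction. Tolvaptan animals were all higher in 4 strains for Pdia4, 5 for Pdia6, and 1 each for Hsp90b1, Dnajb11 and Hyou1, and all lower in 2 strains for Pdia4, 2 for Hsp90b1 and 1 for Hspa5. Sdf2l1, Creld2 and Manf overlapped in all 45 strains. The test of unequal differences between strains, a moderated F test in limma, called 0 of the 10 genes and 0.0212% of all genes. At an unadjusted p under 0.05 it gave 3 of the 10 genes and 6.78% of all genes.

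Control animals of different strains stood far apart in the measured signal of Derl3 and Sdf2l1 and less so in the rest. Both genes were read from their only probe set. The strains' own sequences under the probes were not analysed, so their part in these levels was not tested. Strain means are given here after scan effects were removed, at the level of scan 1. Derl3 Control means ran from 4.54 in IL16680 through a median of 6.10 to 9.90 in OR477, a range of 5.36. The next highest were OR15155 at 8.82 and IL16188 at 8.76, and the next lowest were AU8005 at 4.60 and AU8010 at 4.71. These means include the mismatched arrays, and OR477, OR15155, IL16188 and AU8005 each had 1 mismatched Control array. With scan effects left in, the means ran from 5.28 in AU8048 to 9.72 in OR477. IL16680, AU8005 and AU8010 were then at 5.34, 5.40 and 5.51. Outside scan 1, strain and scan cannot be told apart, so the range and the order at the low end depend on this step.

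Single animals show the same separation. IL16188 had Control values of 8.21, 9.32, 8.32 and 8.49, and AU8010 had 4.74, 6.05, 6.17 and 5.10, with no overlap between the strains. The value of 8.21 came from a mismatched array. The 3 strains with the highest Control mean belonged to the set with animal numbers below 181, and the 3 with the lowest to the other set.

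Sdf2l1 Control means ran from 4.12 in AU8052 to 9.40 in OR15155, a range of 5.27. The animals of AU8052 had 4.50, 4.58 and 4.09 in Control and 6.96, 5.36, 4.84 and 4.18 under tolvaptan, and its Derl3 values were 5.86, 6.35 and 5.84 against 10.37, 7.01, 6.87 and 6.44. The animal with the highest Derl3 value of AU8052 also had the highest Sdf2l1 value. The other 8 chaperones had ranges of 1.11 (Dnajb11) to 1.95 (Creld2).

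Between strains lay 52.7% of the variance of Control arrays in Derl3, 60.7% in Sdf2l1 and 41.0% in Pdia6. The lowest shares were 18.2% in Creld2, 19.1% in Dnajb11 and 20.5% in Hsp90b1, below the median of 24.8% over all genes. Without the mismatched arrays the shares were 68.6% for Derl3, 68.9% for Sdf2l1, 53.1% for Pdia6, 21.6% for Creld2, 30.3% for Dnajb11 and 25.0% for Hsp90b1. The median over all genes was not computed without these arrays, so these shares are not comparable with 24.8%. The F test of equal Control means in limma called 10 of the 10 genes and 74.9% of all genes, so the count says little about these 10.

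Strains with high Control Derl3 tended to have high Control means of Sdf2l1 and Pdia4, less so where no array was mismatched. Over the 45 Control means, r with Derl3 was 0.66 for Sdf2l1 (rho 0.70), 0.63 for Pdia4 (rho 0.57) and -0.14 for Hspa5 (rho 0.042). The other chaperones lay between 0.12 for Hsp90b1 and 0.54 for Pdia6, with Hyou1 at 0.525 and Creld2 at 0.42. Over the 26 strains free of mismatched arrays r was 0.33 for Sdf2l1, 0.22 for Pdia4 and 0.084 for Hspa5. There Creld2 at 0.42, Dnajb11 at 0.40 and Manf at 0.35 lay above Sdf2l1. Pdia6 was at 0.31, Hyou1 at 0.26 and Hsp90b1 at 0.047.

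Animals of the same strain and treatment also differed widely. Around the group means, with scan effects removed, the residual SD was 1.25 for Derl3, which ranked 27 of 14125 genes, and 0.83 for Sdf2l1, which ranked 180. The median over all genes was 0.30. Creld2 had 0.66, and the other 7 genes had 0.38 (Dnajb11) to 0.54 (Manf).

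**Figure D4:**
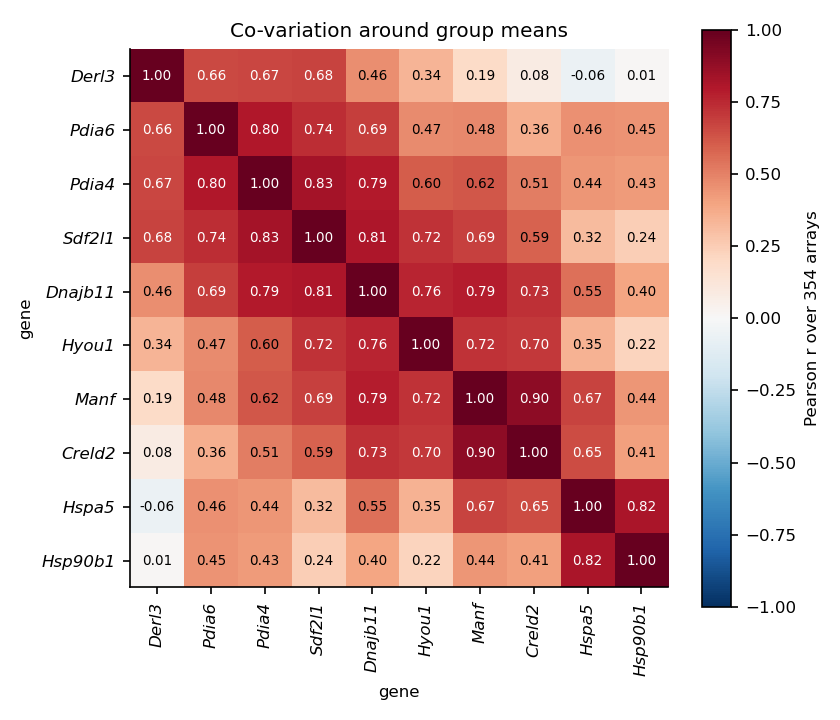
Pearson's r between the 10 genes over 354 arrays, around the mean of each strain and treatment and with scan effects removed. The Derl3 row falls from 0.68 with Sdf2l1 to -0.06 with Hspa5, while Hspa5 and Hsp90b1 reach 0.82 with each other and Manf and Creld2 reach 0.90.

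Within groups, the animals with high Derl3 also had high Sdf2l1, Pdia4 and Pdia6, but not high Hspa5 or Hsp90b1. Over the 354 arrays, Pearson's r of Derl3 was 0.68 with Sdf2l1, 0.67 with Pdia4 and 0.66 with Pdia6. It was 0.46 with Dnajb11, 0.34 with Hyou1, 0.19 with Manf, 0.081 with Creld2, 0.012 with Hsp90b1 and -0.06 with Hspa5. The median over all genes was 0.029. Sdf2l1, Pdia4 and Pdia6 ranked 3, 5 and 6 among 14124 genes by r with Derl3, Dnajb11 ranked 44 and Hspa5 ranked 10533. The points share array, extraction and normalization, and the grouping of the chaperones was seen in these values, so no test is attached.

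The chaperones were tied to each other in other ways. BiP and Grp94, from Hspa5 and Hsp90b1, had r = 0.82. Manf and Creld2 had 0.90, and Hspa5 had 0.67 and 0.65 with them. Sdf2l1, Pdia4 and Dnajb11 had 0.79 to 0.83 among themselves and also 0.51 to 0.79 with Manf and Creld2. Pdia4 had 0.44 with Hspa5. Derl3 was the only one of the 10 without a value above 0.7 with any other.

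Of the genes with an exact ERSE in the windows shown above, r with Derl3 was 0.66 for Pdia6, 0.081 for Creld2, 0.012 for Hsp90b1 and -0.06 for Hspa5. Whether the element bears on the co-variation was not tested.

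In both treatments Sdf2l1, Pdia4 and Pdia6 had the 3 highest values with Derl3, in opposite order. In Control arrays r was 0.72 with Sdf2l1, 0.66 with Pdia4, 0.59 with Pdia6 and 0.087 with Hspa5, over 179 arrays. In tolvaptan arrays it was 0.65, 0.68, 0.72 and -0.20, over 175 arrays. Creld2 had 0.27 in Control and -0.085 in tolvaptan arrays, and Manf 0.35 and 0.059. In scans 1 to 4 r with Sdf2l1 was 0.56, 0.77, 0.67 and 0.74, and r with Hspa5 was -0.12, -0.048, -0.16 and 0.14. Without the mismatched arrays r was 0.65 with Sdf2l1, 0.64 with Pdia4, 0.69 with Pdia6 and -0.036 with Hspa5.

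Against the mean of the 9 chaperones, Derl3 had r = 0.42 and rho = 0.39 over the 354 arrays. Without the 2 arrays farthest from the median of Derl3 r was 0.41. It was 0.52 in Control and 0.35 in tolvaptan arrays.

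**Figure D5:**
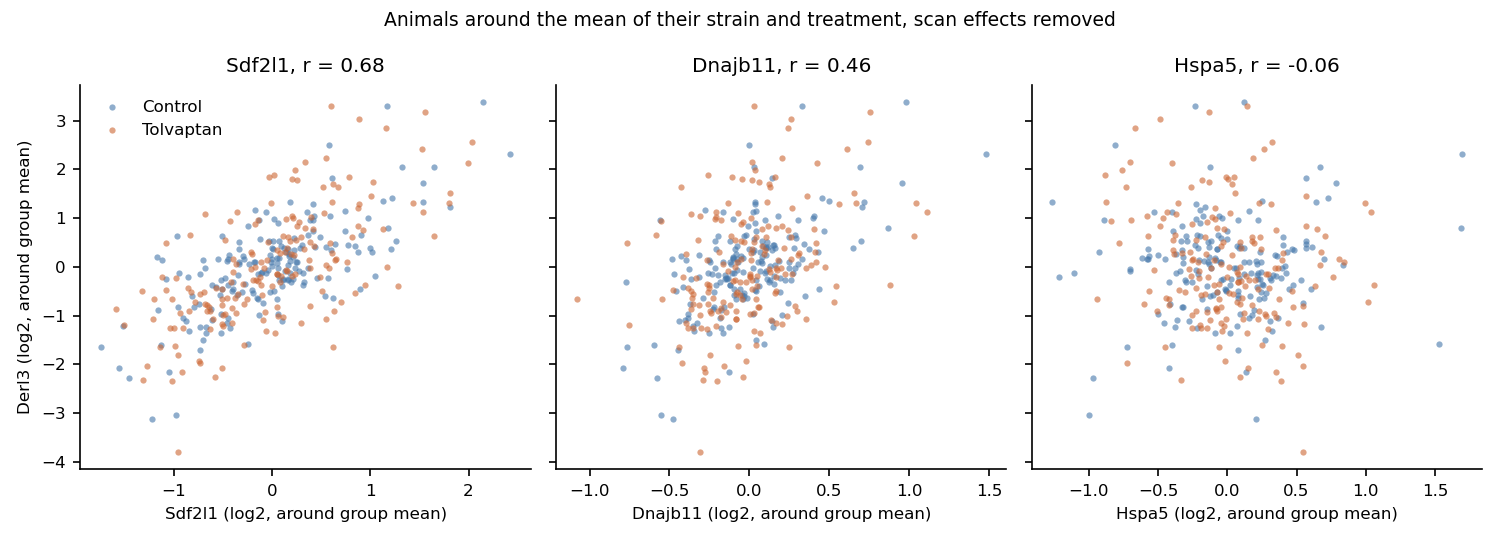
Derl3 against Sdf2l1, Dnajb11 and Hspa5 in 354 animals, each as the log2 value around the mean of the animal's strain and treatment with scan effects removed. The points rise together for Sdf2l1 (r = 0.68) and less for Dnajb11 (0.46), in both treatments. For Hspa5 r is -0.06 over all animals, 0.087 in Control and -0.20 in tolvaptan animals.

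A few animals had all 10 genes high at once. In 4 animals, 2 Control and 2 tolvaptan, each of the 10 genes lay in the highest 10% of its values over all arrays. They were a Control animal of AU8024, a Control animal of AU8021 whose array was mismatched, a tolvaptan animal of AU8033 and a tolvaptan animal of OR5119. The array of the AU8024 animal had r of 0.74 to its labelled strain and 0.79 to another. The AU8024 Control animal had the highest Hspa5 value of all arrays, 12.31, the highest Hsp90b1, 11.93, and the highest Pdia4, 11.11, with Derl3 at 10.61.

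The OR5119 tolvaptan animal had the highest Creld2 of all arrays, 12.09, and the highest Sdf2l1, 11.57, with Derl3 at 11.11 and Hspa5 at 11.46. The other pattern was seen in its strain mate with the highest Derl3 of all arrays, 11.79. There Pdia6 was 10.79 and Sdf2l1 9.99, ranking 8 and 15 of 354, while Hspa5 was 9.71, Creld2 8.41 and Hyou1 6.29, ranking 238, 205 and 302. High Derl3 therefore occurred both with and without high BiP.

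The genes outside the 10 that varied most like Derl3 were also mostly of the ER. By r over the 354 arrays around group means they were Nans (0.76), a sialic acid synthase of the cytosol, Ddost (0.70), Krtcap2 (0.60) and Rpn1 (0.59), subunits of or bound to the oligosaccharyltransferase that attaches N-glycans, Ppib (0.68), an ER cyclophilin, P4hb (0.63), a disulfide isomerase, Fkbp11 (0.63), an ER prolyl isomerase, and Mlec (0.62), an ER lectin. Clptm1l (0.61), a membrane protein, and Snx22 (0.64), a sorting nexin, completed the first 10. Snx22 and Ppib overlap by 1456 bases in RefSeq, and their values correlated at 0.90 over arrays, so their signals may not be separate.

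The r values of these 10 genes lay between 0.56 and 0.68 in Control arrays and between 0.61 and 0.82 in tolvaptan arrays. Of all 14124 genes, 29 had r above 0.5, among them 3 of the 9 chaperones. The lowest values belonged to Topors (-0.43), a ubiquitin and SUMO ligase, Idh3a (-0.41), a subunit of a mitochondrial isocitrate dehydrogenase, Cyp4v3 (-0.40), a cytochrome P450, Ugt2a3 (-0.39), a glucuronosyltransferase, and Gpt2 (-0.39), a mitochondrial alanine aminotransferase. Of these 15 genes, Snx22, Mlec, Krtcap2 and Rpn1 were called for the averaged difference, all higher, by 0.11, 0.15, 0.13 and 0.18. Of all genes 0.496% were called in either direction. The 15 were picked by their r with Derl3, and Krtcap2 and Rpn1 are counted again with the translocation genes below, so these calls are not separate results.

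The genes most like Hspa5 were others. Besides Hsp90b1 they were led by Magt1 (0.75), Gfpt1 (0.73), Stt3b (0.73) and Selenos (0.73), whose r with Derl3 lay between -0.08 and 0.053. These were looked up after the values for Derl3 had been seen.

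Other genes of the ER were counted by role, and their counts at an unadjusted p under 0.05 are to be set beside the 9.56% of all genes under that limit in either direction. Of 36 further genes of ERAD and the ER membrane, 0 were called in limma, and 3 were higher and 0 lower at an unadjusted p under 0.05. Their median difference was 0.0033, against 0.0003 over all genes. The gene with the smallest p was Edem1, a lectin that directs misfolded glycoproteins to degradation, at 0.09 ± 0.03 (SE, adjusted p = 0.281). The other derlins, Derl1 and Derl2, had differences of 0.04 ± 0.02 and 0.003 ± 0.023, and their r with Derl3 was 0.54 and 0.26.

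Of 40 other folding factors, 0 were called in limma, 7 were higher and 2 lower at an unadjusted p under 0.05, and the median difference was 0.027. Ppib had the smallest p, with 0.09 ± 0.03 (adjusted p = 0.0612). In the 26 strains free of mismatched arrays 3 of the 40 were called, all higher, and Ppib was at 0.12 (adjusted p = 0.0134).

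Of 16 sensors and transcription factors of the unfolded protein response, 0 were called in limma, and 2 were higher and 0 lower at an unadjusted p under 0.05. Creb3, an ER-anchored transcription factor, had the smallest p, with 0.07 ± 0.02 (adjusted p = 0.179). Xbp1 differed by 0.04 ± 0.02, Ern1, which encodes IRE1, by -0.03 ± 0.04, and Atf6 by 0.02 ± 0.05. None of these 3 passed the test. Their r with Derl3 was 0.22, 0.074 and -0.26. The array measures total Xbp1 transcript and not its spliced form.

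Of 26 genes of the PERK and ATF4 branch, 1 was called, Psat1, a serine synthesis enzyme, higher by 0.32 ± 0.08 (adjusted p = 0.0392) in 32 of 45 strains. Its mean of 2.67 lay below the typical array median of 2.89, and it was not called without the mismatched arrays. Atf4 differed by 0.04 ± 0.03 and Ddit3, which encodes CHOP, by -0.06 ± 0.05, and neither passed. The median r of this list with Derl3 was -0.087.

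Of 58 genes of translocation, glycosylation and ER-to-Golgi transport, 3 were called, all higher, and 55 had a positive difference. Their median difference was 0.044, and 26 were higher and 0 lower at an unadjusted p under 0.05. Rpn1, a subunit of the oligosaccharyltransferase, was 8.78 in Control and 8.96 in tolvaptan arrays, a difference of 0.18 ± 0.04 (adjusted p = 0.00269) that was positive in 34 strains. Krtcap2 differed by 0.13 ± 0.03 (adjusted p = 0.00608), positive in 33 strains, and Srpr, the receptor of the signal recognition particle, by 0.10 ± 0.02 (adjusted p = 0.0179), positive in 31. All 3 were small against the doubling of Derl3. Without the mismatched arrays only Krtcap2 of the 58 was called, and in the 26 strains free of them 9 were. By scan, Rpn1 differed by 0.14, 0.01, 0.31 and 0.32 in scans 1 to 4. The median r of the list with Derl3 was 0.20, and 9 of the 58 genes were above 0.5.

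Plasma cells and pancreatic acinar cells also make much ER, and most of their markers that could be read were low. Of 15 plasma cell genes listed, 9 could be read, Jchain and Ighm among them, but not Igkc, Ighg1 or Mzb1. All 9 had means below the typical array median, with summed levels of 5.34 to 6.59 in Control and 5.37 to 6.17 in tolvaptan arrays, and their summed level had r = 0.063 with Derl3. Of 21 genes of the exocrine pancreas listed, 17 could be read, but not Prss1, Pnlip or Amy2a1. Of the 17, 13 had means below the typical array median, with summed levels of 6.78 to 9.38 and 6.80 to 9.47 and r = 0.11. One of them was called, Cela2a, an elastase, which was 3.08 in Control and 3.34 in tolvaptan arrays (difference 0.23 ± 0.06, adjusted p = 0.0385 in limma, 0.0898 without the mismatched arrays). For 12 Kupffer cell and macrophage genes, none with a mean below the array median, summed levels were 8.87 to 12.19 and 9.29 to 12.68 and r was 0.18. The summed level of the 14 hepatocyte genes, in which the brightest weigh most, had r = -0.34 with Derl3, and the median of their single r values was -0.065, from -0.39 for Cps1 to 0.22 for Pck1. Of 10 sinusoidal endothelial genes 1 was called, Stab2, a scavenger receptor, lower by a difference of -0.19 ± 0.04 (adjusted p = 0.00104 in limma), and 0 were higher and 3 lower at an unadjusted p under 0.05. Of 10 stellate cell and fibroblast genes, 0 were called in limma, and 0 were higher and 2 lower at that limit.

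Some acute phase genes varied with Derl3. Of 27 acute phase genes 2 were called, both higher, Saa3 and Hp, with differences of 0.91 ± 0.12 and 0.07 ± 0.01, and their r with Derl3 was 0.58 and 0.54. These were the 2 of the 27 with r above 0.5, and the median r of the list was 0.11. At an unadjusted p under 0.05, 13 of the 27 were higher and 0 lower. Only Saa3 of the 27 was called without the mismatched arrays. Of 16 cytosolic heat shock genes, 0 were called in limma, and 3 were higher and 0 lower at an unadjusted p under 0.05. The 3′ minus 5′ signal of Actb, which grows with RNA degradation, had medians of 1.78 in Control and 1.76 in tolvaptan arrays and r = -0.23 with Derl3 around group means, and the spread in relative log expression had r = 0.051. The part of these measures in the Derl3 values was not tested.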

How the data were processed

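The deposited values are log2 expression values that the authors made with RMA in the Affymetrix Expression Console, per the submitters' processing notes. Versions, and whether all arrays were normalized together, are not given in the sources used here. They cover 354 HT_MG-430 PM arrays and 42597 probe sets, of which 27691 have 1 gene symbol, 493 several and 14376 none, besides 37 control probe sets. Arrays have no read depth, and their number limits the precision. Each gene is represented by its brightest probe set that carries a single symbol. Dim genes, exceeding the array median in fewer than 4 arrays, were dropped. Mismatched arrays are those with r under 0.5 to their strain over 500 probe sets. A model with 1 mean per strain and treatment plus scan was fitted to all genes with limma 3.58.1 in R 4.3.3, two-sided, with Benjamini-Hochberg adjustment at 0.05. Within a scan, strain and treatment were additive. Correlations used the residuals of this model. Each array holds a separate animal. The steps were tested on simulated arrays.

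The 10 genes, the gene lists and the tests were chosen with earlier results of these data known. Besides the 10 genes, the text names the 10 genes with the highest and the 5 with the lowest r with Derl3, for each of 5 ER lists the called genes (up to 4) or the gene with the smallest p, and for Derl3 the 5 strains at each end of the difference and the 3 at each end of the Control mean. Derl1, Derl2, Xbp1, Ern1, Atf6, Atf4, Ddit3, Cela2a, Saa3, Hp, Stab2, Cps1, Pck1, the strains AU8052, AU8024, IL16750, AU8002 and AU8048, the animals with all 10 genes high and the genes most like Hspa5 are named outside this rule, chosen after their values were seen. The strain sets by animal number were also set after values were seen. Promoter windows are RefSeq's, and 8 of the 10 genes matched.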

Additional observations from a re-analysis of the deposited data

Results flagged for a closer look

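The Derl3 values of 16 of the strains named in the text were screened for animals far from the rest of their group in the 30 groups of 4 animals. In 4 groups the gap between the outermost animal and its nearest neighbour took up more of the group's range than the 95% critical value allows. Chance alone marks about 1 in 20 such groups. In OR477 the Control animal at 6.55 lay below the other Control values of 10.58 to 10.94, and its array was mismatched, that is, unlike the other arrays of its labelled strain. In OR13421 the tolvaptan animal at 8.51 lay above the others, at 5.57 to 5.88, and its array matched its strain. In IL16680 the Control animal at 5.86 lay above the others, at 5.15 to 5.19. That animal was the group's only one in scan 1. In AU8052 the tolvaptan animal at 10.37 lay above the others, at 6.44 to 7.01, and its array matched its strain.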

How the results depend on the processing

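Over the alternatives tried, the averaged Derl3 difference stayed positive, between 0.45 and 1.78. Of 202 values of the 10 genes' averaged differences under alternatives, 47 moved by over 1 standard error of the averaged difference, 19 of them by over 2, and 1 changed the sign of a called gene, Pdia4 at -0.0012 within scan 1. For Derl3 10 of 22 moved by over 1 standard error and 6 by over 2. The sign of Hspa5, Creld2, Manf, Hyou1, Dnajb11 and Sdf2l1 changed in at least 1 setting. The number of genes called over the whole table was 70 and moved to 158 without scan 1, 1 without scan 2, 0 without scan 3 (466 at an unadjusted limma p under 0.05), 0, 0, 32 and 0 within scans 1 to 4 (358, 865 and 838 unadjusted in scans 1, 2 and 4), 44 without mismatched arrays, 300 in the 26 strains with none, 18 with strains as the unit, 336 with array weights and 121 without OR477. Leaving out replicates 1 to 4 in turn gave 3 to 162. Of the 10 genes 3 were called, but 1 with strains as the unit and 1 to 3 with a replicate left out. Without scan 2 or scan 3, 0 of the 10 were called in limma, with 3 and 2 unadjusted, against 6.41% and 3.3% of all genes. Within scans 1, 2 and 4, 0 of the 10 were called in limma, with 0, 0 and 3 unadjusted, against 2.53%, 6.12% and 5.93% of all genes. Without AU8033 2 of the 10 were called. Of the other ER genes in the 5 lists 4 were called, but 2 with no scan term, 8 without scan 1, 0 without scan 2 or 3, 0 within scans 1, 2 and 4, 1 without mismatched arrays, 13 in the 26 strains, 0 with strains as the unit, 22 with array weights, 2 without AU8033 or OR5119, 10 without OR13421, and 0 to 12 with a replicate left out. The test of unequal differences called 3 genes, and 11 without scan 1, 455 without scan 2, 26 without mismatched arrays, 5 with quantile normalization, 1459 with array weights and 1 to 21 with a replicate left out. The r of Derl3 with the chaperone mean was 0.42; it was 0.28 within scan 1, 0.75 within scan 6 of 10 arrays, and 0.35 to 0.47 with a replicate left out. With 1 animal left out, the Derl3 difference of OR13421 ran from -1.60 to 0.25, and that of AU8021 became 0.091 without mismatched arrays. The causes were not tested. No paired analysis was possible because no animal number is shared between the groups, so none pairs single animals; strain, which both treatments share, is in every model, and strains as the unit used 1 difference per strain.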
